A study of Mus musculus with 18 samples.

Results

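Gli1, Gli2 and Gli3 encode the GLI zinc finger proteins, the transcription factors at the end of the hedgehog pathway. They were chosen by name, with earlier results of these data known, and are 3 of the 20665 protein-coding genes on the mouse autosomes that were considered. The study mapped where 2 transcription factors of the nuclear factor I family, NFIA and NFIB, sit on the genome while medulloblastoma, a tumor of the cerebellum, forms in a genetically engineered mouse model. It used CUT&Tag, in which an antibody brings a transposase to the bound protein so that the DNA beside it is cut out and sequenced. The 18 libraries came from 3 groups: granule neuron progenitors (GNP) of postnatal day 7, hyperplasia of postnatal day 28, and medulloblastoma of adult mice (tumor). Each group has 3 preparations, and each preparation gave 1 NFIA and 1 NFIB library from 100000 primary cerebellar cells isolated on a Percoll gradient. The labels name neither the strain nor the engineered alleles, nor whether the animals that gave the progenitors carried them, and do not say whether a preparation is 1 animal or a pool. Stage and age change together in this design and cannot be told apart. The cell line that the series' design text mentions was not analysed here.

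In the hedgehog pathway, a secreted ligand binds the receptor PTCH1, which then stops holding back the membrane protein SMO, and SMO in turn frees the GLI proteins from their inhibitor SUFU. GLI2 acts mainly as the activator of target genes, GLI3 is processed mainly into a repressor when no ligand is present, and GLI1 is an activator that is itself a target of the pathway. Hedgehog ligand from Purkinje cells drives the division of granule neuron progenitors in the young cerebellum, and mutations that switch the pathway on in these cells give rise to a major class of medulloblastoma. NFIA and NFIB bind DNA as dimers at the sequence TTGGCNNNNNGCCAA or at 1 arm of it, and are known for their part in the differentiation of glia and of granule neurons.

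The values are summits, the single bases at which the authors' peak caller placed the highest point of each peak, with a score on a −log10 p or q scale. The lists hold 49948 to 385466 summits per library, so the 30000 with the highest scores on the autosomes of each library (the top summits) were used. A top summit was given to the nearest protein-coding gene if that lay within 100 kb. The marker check could not tell whether the labels hold: all 8 granule progenitor genes (Atoh1, Pax6, Zic1 and others) had top summits in all 9 preparations, but so did 3 of 4 astrocyte and 4 of 4 oligodendrocyte genes. The vessel genes had 9 to 14, 8 to 10 and 13 to 15 top summits together in the 3 stages, and the Purkinje cell and interneuron genes 5 to 6, 5 to 7 and 5 to 7. The 3 microglia genes had 0 to 3 top summits together in any preparation and Pcp2, a Purkinje cell gene, had none in any. The summed level of the granule progenitor genes ranged from 55 to 60 top summits in GNP, from 35 to 45 in hyperplasia and from 49 to 53 in tumors. The astrocyte genes ranged from 20 to 24, from 22 to 27 and from 16 to 22. The oligodendrocyte genes ranged from 21 to 25, from 19 to 27 and from 21 to 24. No value over all genes is given beside these counts, so they stand without a background. A summit near a gene is not the gene's expression, and a lower share of one cell type cannot be told apart from less binding per cell.

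The DNA just before the starts of Gli2 and Gli3 is shown first, since the 2 genes differ there in where NFI summits fall. Both sequences are the 250 bases before the start site in the RefSeq promoter table of build GRCm38.p6, the reference sequence of mm10, written on the gene's own strand 5′ to 3′ with every CG dinucleotide in capitals. Gli2 lies on the minus strand (chr1:119053620-119053869) and Gli3 on the plus strand (chr13:15463473-15463722). The table matched 2 of the 3 genes, Gli1 being the third.
Gli2 promoter: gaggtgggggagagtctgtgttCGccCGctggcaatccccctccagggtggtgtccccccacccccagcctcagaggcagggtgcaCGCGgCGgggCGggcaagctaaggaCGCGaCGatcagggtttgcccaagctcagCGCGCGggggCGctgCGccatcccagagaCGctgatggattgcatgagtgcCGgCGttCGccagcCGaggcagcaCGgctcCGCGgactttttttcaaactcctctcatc
Gli3 promoter: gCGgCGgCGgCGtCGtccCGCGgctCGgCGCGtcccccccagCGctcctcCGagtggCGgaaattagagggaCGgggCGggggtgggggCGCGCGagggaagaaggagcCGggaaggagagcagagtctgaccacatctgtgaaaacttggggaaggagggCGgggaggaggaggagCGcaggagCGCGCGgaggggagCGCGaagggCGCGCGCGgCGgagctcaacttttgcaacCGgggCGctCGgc

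Both are rich in CG. With the next 50 bases included, the Gli2 window had 28 CG dinucleotides and 67.3% G or C, more G or C than 86.2% of the 32851 promoter windows of the table, and the Gli3 window had 39 and 71.0%, more than 91.8%. Neither window holds the NFI half-site TTGGC on either strand (reverse complement GCCAA), which 46.7% of all windows of this length hold. The whole palindrome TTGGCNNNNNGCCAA, was in 12 windows (0.0365%), and the GLI site GACCACCCA (reverse complement TGGGTGGTC) in 83 (0.253%), the windows of these genes not among them. The Gli2 window held 10 top summits from 9 of the 18 libraries, at positions -210 to 27 from the start site, while the Gli3 window held none from any library.

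The GLI genes differed widely in how many top summits they drew. Gli2 had a mean of 41.7 per preparation, NFIA and NFIB together, and only 15 of the 20665 genes had more. Gli3, which spans a longer stretch than Gli2 (266304 against 220345 bases), had a mean of 6.44, with 2138 genes (10.3%) above it. Gli1, a short gene of 11698 bases, had 1.78. Per length, counting the top summits inside the annotated span summed over the 2 libraries of a preparation, Gli2 had 15.4 per 100 kb, Gli1 13.3 and Gli3 0.292. Of the 2313 genes of at least 100 kb, whose median was 2.18 per 100 kb, 7 were denser than Gli2 and 2094 were denser than Gli3. Most of the Gli2 summits, 305 of 375 (81.3%), lay inside the gene, whereas 7 of 58 (12.1%) of those of Gli3 did.

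**Figure D1:**
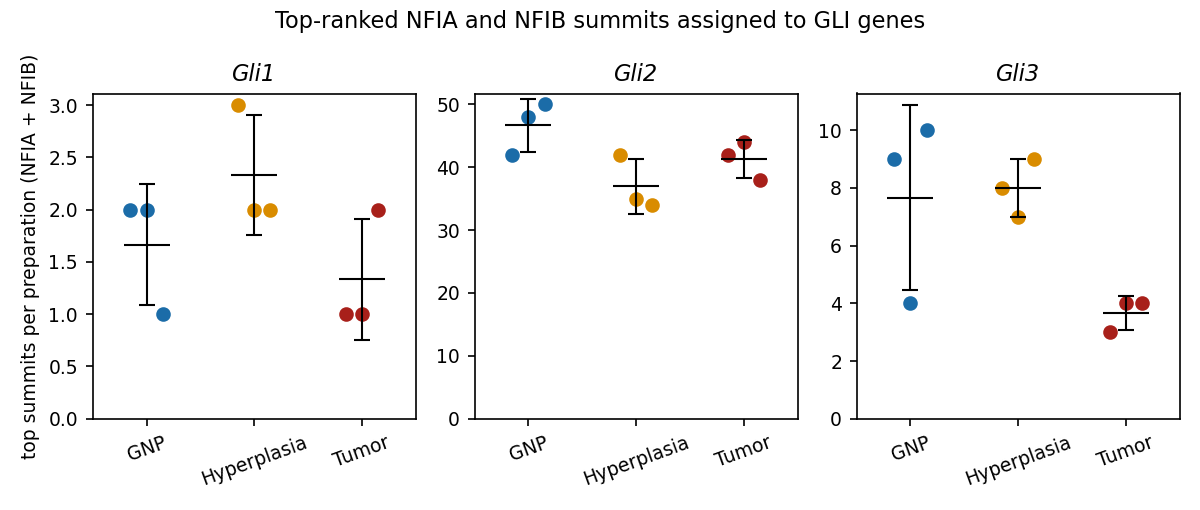
Top summits assigned to each GLI gene (vertical axis, number per preparation, NFIA and NFIB libraries summed) in GNP, hyperplasia and tumor. Points are the 3 preparations of a stage, the horizontal bar and whiskers their mean ± SD; the vertical scale differs between genes. Gli2 ranged from 34 to 50, Gli3 from 3 to 10 and Gli1 from 1 to 3.

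Gli1 (gene ID 14632, chr10:127329882-127341579, mm10) was hit by few summits and mostly by 1 region. The preparations had 2, 2 and 1 top summits in GNP, 3, 2 and 2 in hyperplasia, and 1, 1 and 2 in tumors, so that the stages overlapped. With a mean under 2, Gli1 did not pass the filter on low values and was not tested. Its region inside the gene, chr10:127339024-127339337, held a top summit in 12 libraries, 5 of GNP, 5 of hyperplasia and 2 of tumors. At any rank, the tumor lists had a summit there in 5 of 6 libraries. The first NFIB library of the tumors listed no summit for Gli1 at all. The best rank of a Gli1 summit, counted from 1 for the highest score, was between 6369 and 48013 in the other libraries, and no Gli1 summit was among the top 5000 of any library.

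Gli2 (gene ID 14633, chr1:118834061-119054405, minus strand), the main activator, had 42, 48 and 50 top summits in the 3 GNP preparations, a mean of 46.7 ± 4.16 (SD, n = 3). Hyperplasia had 42, 35 and 34, a mean of 37 ± 4.36 (n = 3), and tumors 42, 44 and 38, a mean of 41.3 ± 3.06 (n = 3). The highest hyperplasia preparation thus equalled the lowest GNP preparation, and tumors overlapped both. On the log2(summits + 0.5) scale, hyperplasia minus GNP was -0.33 (SE 0.10, unadjusted p = 0.0139, limma, adjusted p = 0.228 over 8581 genes). Tumor minus GNP was -0.17 (limma adjusted p = 0.485) and tumor minus hyperplasia 0.16 (limma adjusted p = 0.612). None of these passed the threshold of 0.05. The summed granule progenitor genes were lowest in hyperplasia as well, 35 to 45 top summits against 55 to 60 in GNP; the part of that in the Gli2 values was not tested. The same fits called 9 genes (0.105%), 13 genes (0.151%) and 8 genes (0.0932%), in that order, and neither Gli2 nor Gli3 was among them; at an unadjusted p under 0.05 the 3 fits had 1135, 1260 and 950 genes. The 3 comparisons share their samples pairwise and are not independent of each other. The sources do not say that preparations of a stage came from separate animals. The spread behind every p-value here, between preparations or, where NFIA and NFIB are compared, single libraries, could thus be technical alone.

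The summits at Gli2 fell at the same places in most libraries. Joining all top summits within 100 bp on each side, and keeping regions with 3 or more libraries, gave 42017 regions in the genome and 23 for Gli2, of which 6 (26.1%) held a top summit in all 18 libraries, against 14.5% of all regions. Of these 6, the one nearest the start, chr1:119001275-119002044 at 52.0 kb into the gene, had a median rank of 2452 over libraries, and those at 70.9 kb (chr1:118982493-118982955) and 98.6 kb (chr1:118954638-118955357) had 2944 and 2943. The regions at 137 kb (chr1:118916528-118917031) and 189 kb (chr1:118863976-118865136) ranked lower, with medians of 7212 and 8403. The last of the 6, chr1:118789359-118790244, lies beyond the end of the gene, 44260 bases from it, with a median rank of 7614. The RefSeq table used gives spans only, so exons and introns were not told apart. The region that covers the start site, chr1:119053294-119053929, held a top summit in 13 libraries (5 of GNP, 4 of hyperplasia, 4 of tumors), at a median rank of 20815, behind those 6 regions.

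**Figure D2:**
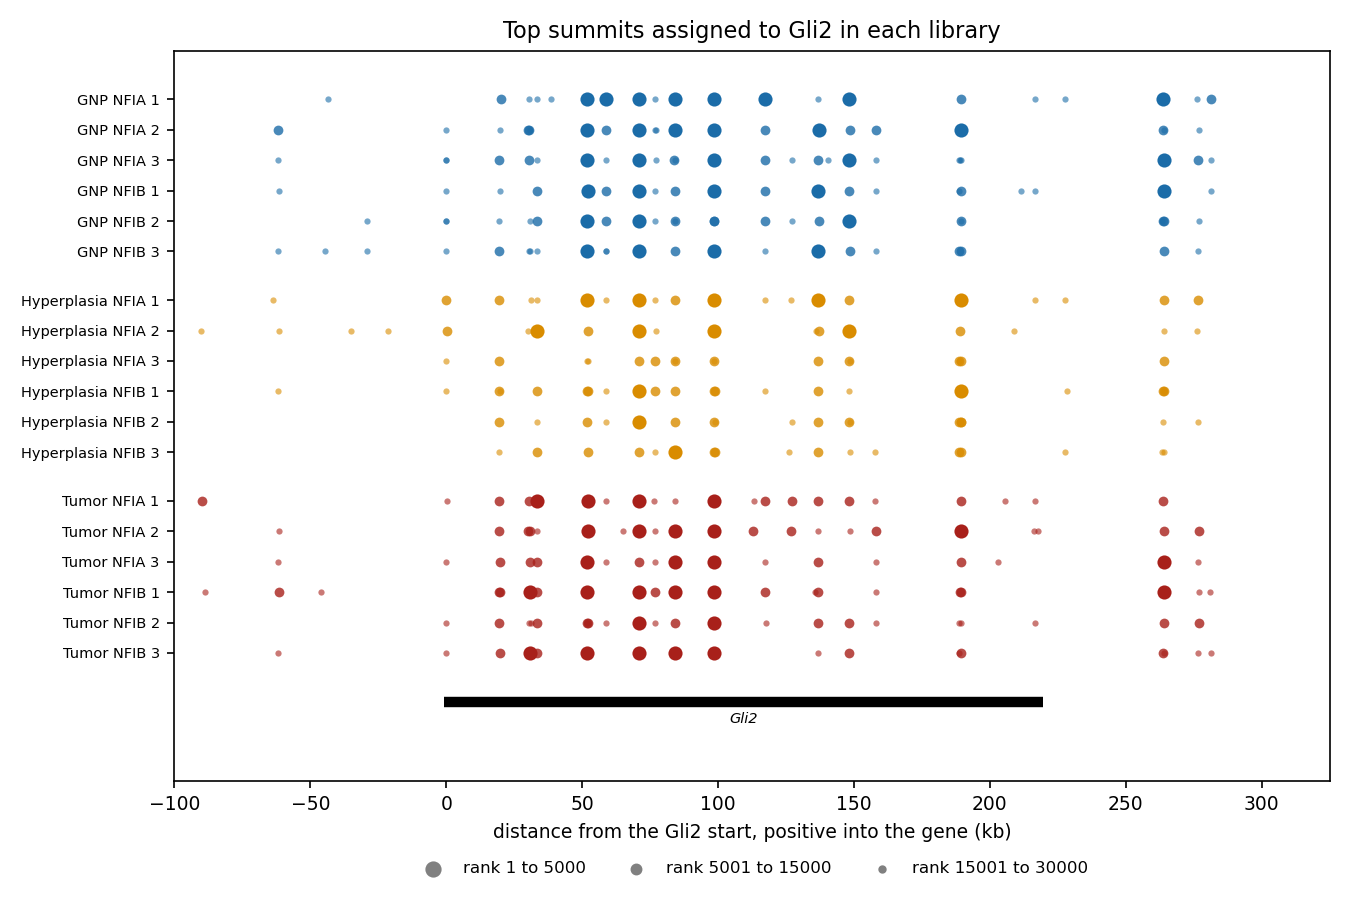
Top summits assigned to Gli2 in each of the 18 libraries (1 line per library), by distance from the start site in kb, positive into the gene (black bar). Larger points are summits of better rank; the columns of points at 52.0, 70.9 and 98.6 kb run through all 18 libraries, and the largest points are fewer in hyperplasia.

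The rank of the Gli2 summits was lower in hyperplasia than in the other stages, but the difference did not pass a test adjusted over the GLI genes, and lists of different length make ranks only roughly comparable. Among the top 5000 summits of each library, Gli2 had 31 in the GNP libraries together, 13 in hyperplasia and 26 in tumors. The best Gli2 summit ranked from 476 to 2051 in the 6 GNP libraries (median 1062), from 1957 to 5669 in hyperplasia (median 4568) and from 552 to 2517 in tumors (median 1120). The hyperplasia libraries therefore lay almost wholly behind the others: the best of them, the first NFIA library at 1957, came ahead of 1 GNP and 1 tumor library. As means per preparation, the best rank was 1171 ± 397 in GNP, 4004 ± 1074 in hyperplasia and 1289 ± 463 in tumors (SD, n = 3 each), and the hyperplasia preparations did not overlap the others. How many of all genes show no such overlap in best rank is not given here, so this stands without a background. An exact permutation test of the sum of squares between the 3 stages gave p = 0.0274, and p = 0.0821 adjusted over the 3 GLI genes. Expressed as a percentile of each library's list, which was the measure planned, the best summit lay at 97.5 to 99.4 in GNP, 93.1 to 99.3 in hyperplasia and 97.5 to 99.8 in tumors, so that the stages overlapped. This gave exact permutation p = 0.0571 (adjusted 0.171); the rank itself was added after the data were seen. The percentile passed in the NFIB libraries alone (adjusted exact permutation p = 0.0321) and without hyperplasia preparation 2 (0.0429). Hyperplasia against GNP and against tumors each gave p = 0.1 on the rank, the smallest value that an exact permutation test of 3 against 3 preparations allows. The best ranks of Gli1 and Gli3 had adjusted exact permutation p = 0.993 each.

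**Figure D3:**
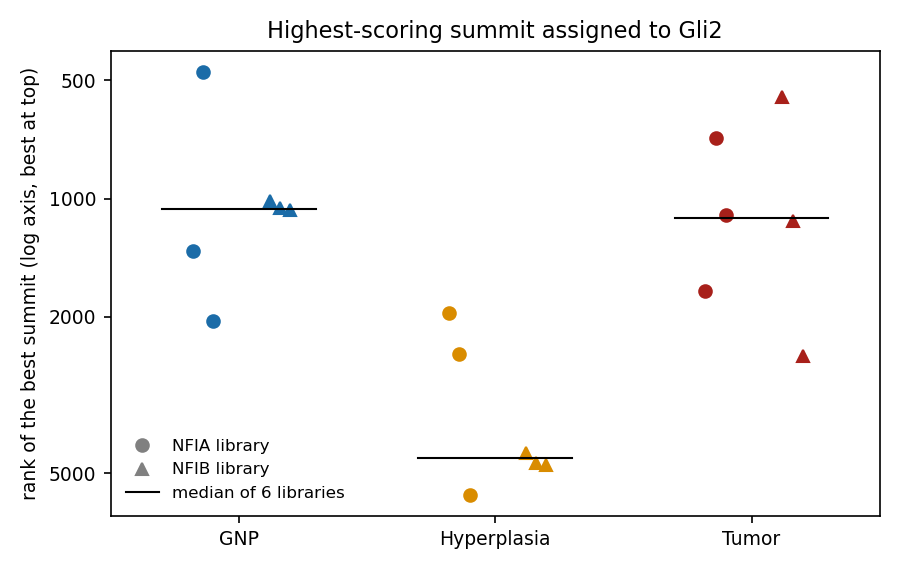
Rank of the highest-scoring Gli2 summit in each library (vertical log axis, best rank at the top) by stage; circles are NFIA and triangles NFIB libraries, lines the median of 6. The hyperplasia median sits at 4568, against 1062 in GNP and 1120 in tumors.

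Region by region, hyperplasia had top summits in fewer libraries than GNP in 10 of the 23 Gli2 regions (43.5%), in more in 1 and in as many in 12. Over all regions it had fewer in 37.5%, a share close to that of Gli2. It was below both other stages in 8 of 23 (34.8%), against 20.8% of all regions; neither share was tested. The region with the widest difference, chr1:119022402-119023212 at 30.8 kb into the gene, held a top summit in 5 of 6 GNP libraries, 1 of 6 hyperplasia libraries and 6 of 6 tumor libraries. By the rule that a region is gained or lost when at least 5 of 6 libraries of 1 stage and at most 1 of 6 of the other hold it, this region was lost from GNP to hyperplasia and gained from hyperplasia to tumors. The rule called 2.78% of all regions lost in the first comparison and 1.21% gained in the second, against 1 of 23 Gli2 regions in each. Leaving out 1 preparation at a time, the GLI regions lost in the first comparison numbered 0 to 2 and those gained in the second 0 to 1. At any rank, 5 of the 6 hyperplasia libraries listed a summit there, 1 of them the top summit already counted, and all GNP and tumor libraries did. A similar order held at chr1:118936049-118936613, 117 kb into the gene, with 6, 2 and 4 libraries, which passed no rule and was picked here after its values were seen.

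Gli3 (gene ID 14634, chr13:15463723-15730026, plus strand), the main repressor, had 9, 4 and 10 top summits in GNP, a mean of 7.67 ± 3.21 (SD, n = 3), and 8, 7 and 9 in hyperplasia, a mean of 8 ± 1 (SD, n = 3). Tumors had 3, 4 and 4, a mean of 3.67 ± 0.577 (n = 3). The tumor preparations lay below all hyperplasia preparations and met the GNP preparations at 4. Of genes tested, 7.99% did not overlap between tumor and hyperplasia preparations. The log2 difference was -0.89 for tumor minus GNP (SE 0.32, unadjusted p = 0.0245, limma adjusted p = 0.262) and -1.03 for tumor minus hyperplasia (SE 0.32, unadjusted p = 0.0126, limma adjusted p = 0.304), and neither passed. Hyperplasia minus GNP was 0.14 (limma adjusted p = 0.890). The tumor minus GNP value turned to 0.39 (limma adjusted p = 0.877) with 15000 top summits per library in place of 30000, where few Gli3 summits were left. It was -0.78 and passed (limma adjusted p = 0.0444) when all listed summits were used, scaled to equal list totals. In that setting 314 genes were called in tumor minus GNP, against 13 in the main fit.

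Inside the Gli3 span there was hardly any top summit, and in tumors none: 4 of 23 top summits of the GNP libraries lay inside it, 3 of 24 of hyperplasia and 0 of 11 of tumors. No Gli3 summit reached the top 5000 in any library. Of its 5 regions, the ones past the 3′ end of the gene were shared by the stages. The region chr13:15758816-15759851, 29307 bases beyond the gene, held a top summit in all 18 libraries, and chr13:15741771-15742378, 12048 bases beyond it, in 5 GNP, 4 hyperplasia and 3 tumor libraries. The 3 regions before and inside the gene had no top summit in any tumor library. That is 60% of the 5 Gli3 regions, against 9.26% of all regions, and was not tested. The one nearest the start, chr13:15462991-15463276, lies 590 bases before the gene, outside the printed promoter, and held a top summit in 1 GNP library, 5 hyperplasia libraries and 0 tumor libraries. It was gained from GNP to hyperplasia (2.15% of all regions were) and lost from hyperplasia to tumors (1.07%). In GNP a summit was listed there at any rank in 4 of 6 libraries, in hyperplasia in 5 and in tumors in 0. At chr13:15440671-15440994, 22891 bases before the gene, the top summits were in 3, 2 and 0 libraries and summits of any rank in 6, 4 and 0. At chr13:15588866-15589109, inside the gene, they were in 3, 0 and 0, and at any rank in 4, 3 and 1.

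The DNA around Gli3 was then counted over a longer stretch, which includes the summits of Gli3 itself. This stretch was chosen with earlier results of these data known. The p-values for it, its windows and its genes therefore do not come from data independent of that choice. In the 3 Mb from 15 to 18 Mb of chr13, GNP preparations had 35, 21 and 35 top summits (30.3 ± 8.08, SD, n = 3), hyperplasia 25, 27 and 30 (27.3 ± 2.52) and tumors 11, 11 and 17 (13 ± 3.46). Every tumor preparation was below every other preparation. Among 805 windows of 3 Mb covering the autosomes, tumor minus GNP was -1.18 on the log2 scale (SE 0.23, limma adjusted p = 0.00792), with 2 windows lower, and tumor minus hyperplasia -1.07 (SE 0.23, limma adjusted p = 0.0247), with 5 lower. Hyperplasia minus GNP was -0.11 and did not pass (limma unadjusted p = 0.632; 0.124% of windows were called). Windows called lower in tumors were 3.85% of all against GNP and 1.49% against hyperplasia, and windows whose preparations did not overlap were 30.6% and 18.3%. The tumor calls depended on how summits were chosen: with all listed summits, scaled, the differences were -0.33 (limma adjusted p = 0.345) and -0.31 (limma adjusted p = 0.452), and with 15000 top summits -0.46 (limma adjusted p = 0.124) and -0.55 (limma adjusted p = 0.113). The call between tumors and hyperplasia was also lost without preparation 2 or 3 of hyperplasia or 1 or 2 of the tumors, with limma adjusted p up to 0.0948.

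The window of the stretch with the largest tumor difference was the 0.5 Mb before and around the Gli3 start. From 15 to 15.5 Mb, a window that ends 36.3 kb into the gene, GNP preparations had 10, 6 and 11 top summits, hyperplasia 6, 7 and 9, and tumors 0, 1 and 0. The only tumor summit there, in the second NFIA library, ranked 19990. Tumor minus GNP was -3.68 (SE 0.44, limma adjusted p = 0.00101), with 1 of 3871 windows of 0.5 Mb lower, and tumor minus hyperplasia was -3.42 (SE 0.44, limma adjusted p = 0.00163), with 2 lower. Windows called lower were 1.63% and 0.207% of all, and those whose preparations did not overlap, as here, 19.9% and 12.8%. With 15000 top summits per library the window held 4, 3 and 4 in GNP, 0, 4 and 1 in hyperplasia and 0, 0 and 0 in tumors, a mean of 1.78 that is below the filter, so that setting gave no test. Both calls held in the 21 alternatives that could be fitted, with differences from -4.21 to -1.23 and from -3.95 to -1.09. Hyperplasia minus GNP was -0.25 (limma adjusted p = 0.822, with 0.827% of windows called).

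**Figure D4:**
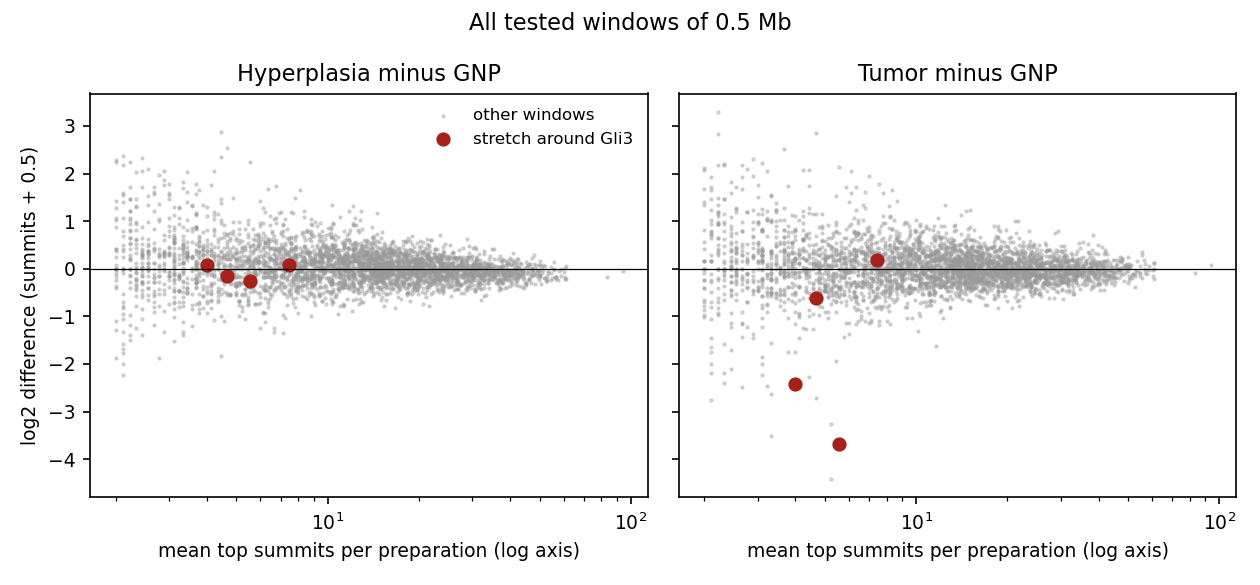
Log2 difference in top summits of each 0.5 Mb window tested (vertical axis) against its mean number of top summits per preparation (horizontal log axis), for hyperplasia minus GNP and tumor minus GNP. The 4 tested windows of the stretch around Gli3 are in red; in tumors, 2 of them lie at -3.68 and -2.41 and the others at -0.61 and 0.18.

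The remaining windows of the stretch did not all behave alike. From 15.5 to 16 Mb, which holds the shared regions past Gli3, there were 7, 3 and 7 top summits in GNP, 5, 3 and 7 in hyperplasia and 3, 3 and 4 in tumors (tumor minus GNP -0.61, limma adjusted p = 0.376). From 16.5 to 17 Mb there were 7, 3 and 6, then 6, 5 and 5, then 0, 0 and 4, and tumor minus GNP was -2.41 (SE 0.67, limma adjusted p = 0.0548). The third tumor preparation, with 4, thus overlapped GNP. From 17 to 17.5 Mb tumors had none, against 3, 2 and 3 in GNP and 1, 3 and 2 in hyperplasia, and this window and that from 16 to 16.5 Mb were below the filter. The far end, from 17.5 to 18 Mb, had 8, 7 and 9 in tumors against 6, 7 and 8 in GNP (0.18, limma adjusted p = 0.672).

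Region by region, 11 of the 21 regions of the stretch had no top summit in any tumor library (52.4%), against 9.26% of all regions. As the stretch was chosen with earlier results of these data known, this share is a description only and was not tested. In tumors the longest part of the stretch with no top summit in any of the 6 libraries ran from 16682430 to 17694930, a gap of 1012.5 kb. The longest such gaps in GNP and hyperplasia were 602.4 and 624.7 kb. The tumor gap ended at chr13:17694830-17695248, a region 244 bases from Sugct that all 18 libraries held, at a median rank of 1079. Before Gli3, chr13:15078650-15079528 held a top summit in 6 GNP, 3 hyperplasia and 0 tumor libraries and was lost from GNP to tumors, as 2.51% of all regions were. None of the 29 GLI regions was called in this comparison (2.30% of all regions were gained). Inside Sugct, the gene of a mitochondrial glutarate CoA-transferase, chr13:17342799-17343190 went from 6 to 4 to 0 libraries, and chr13:16913734-16914177 from 1 to 6 to 0.

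**Figure D5:**
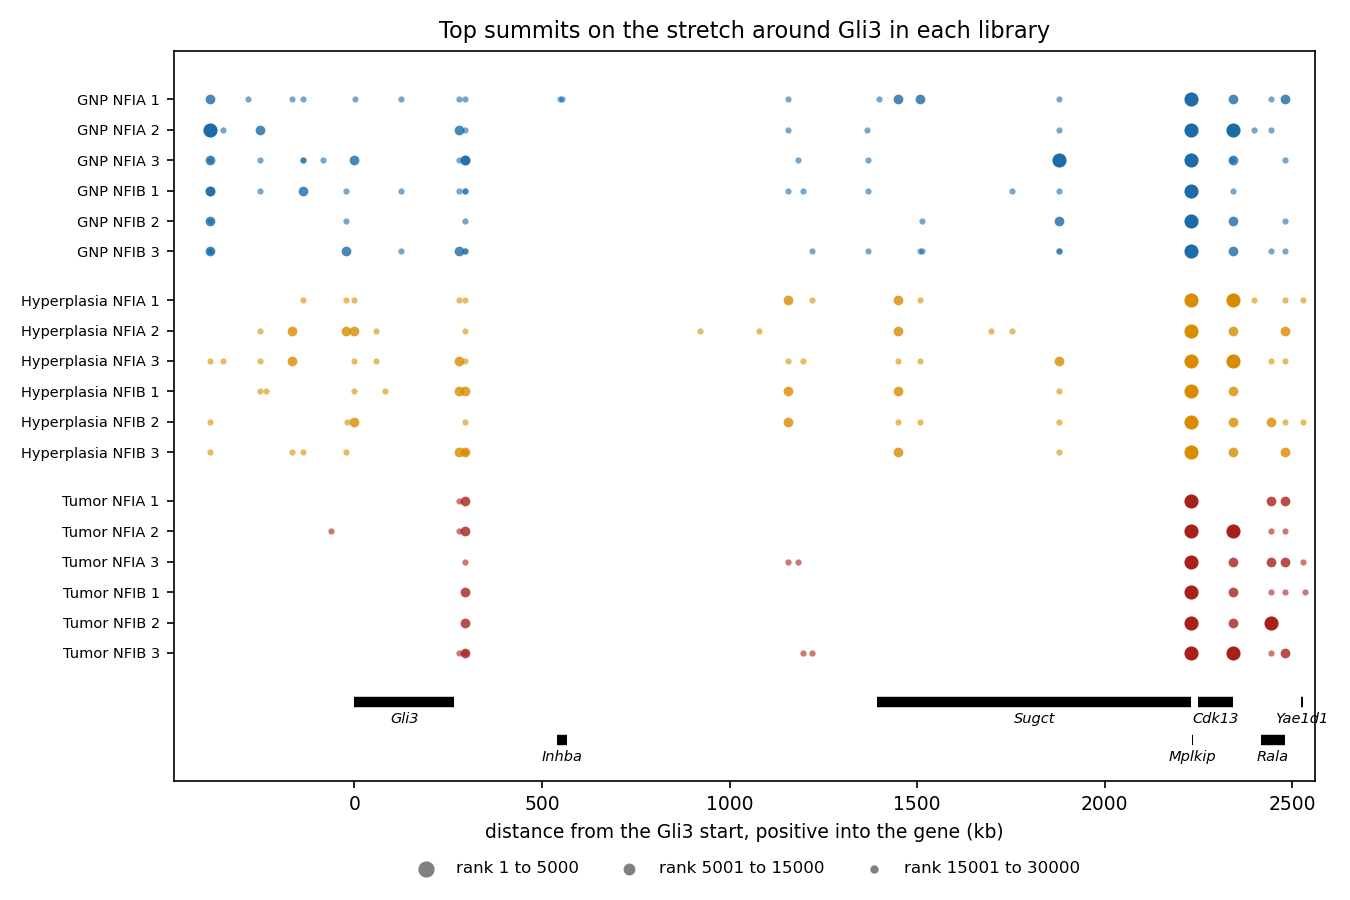
Top summits from 15 to 18 Mb of chr13 in each of the 18 libraries (1 line per library), by distance from the Gli3 start site in kb, positive into the gene; black bars are genes and larger points are summits of better rank. Tumor libraries have 1 summit left of the end of Gli3, and the regions just past Gli3 and at the right end run through all stages.

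Of the neighbours, Sugct fell in tumors by the test as planned. Its top summits numbered 8, 6 and 9 in GNP, 6, 8 and 7 in hyperplasia and 2, 2 and 2 in tumors. That is a log2 difference of -1.69 from GNP (SE 0.17, limma adjusted p = 0.0193) and -1.58 from hyperplasia (SE 0.17, limma adjusted p = 0.0385), in 3 of 3 tumor preparations. These calls were not stable: they held in 13 and 4 of 24 alternatives, with limma adjusted p = 0.114 and 0.245 under a replicate block, and with all listed summits, scaled, tumor minus GNP turned to 0.043 (limma adjusted p = 0.949). Leaving out GNP preparation 3 or any tumor preparation also ended the first call (limma adjusted p up to 0.0657), and leaving out any 1 preparation ended the second (up to 0.129). Cdk13, which encodes a cyclin-dependent kinase, had 2, 2 and 3, then 2, 2 and 2, then 1, 2 and 2 (tumor minus GNP -0.41, limma adjusted p = 0.457). Rala, which encodes a RAS-related GTPase, had 2, 3 and 3, then 2, 3 and 3, then 4, 3 and 4 (0.40, limma adjusted p = 0.423). Inhba, Mplkip and Yae1d1 had a mean below 1 in every stage.

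The libraries did not all show the stretch in the same way once every listed summit was counted. As a share of the top summits the stretch held 0.0506% in GNP, 0.0456% in hyperplasia and 0.0217% in tumors, and tumors against either other stage gave exact permutation p = 0.1, the smallest value possible. As a share of all listed summits it held 0.0552%, 0.0597% and 0.0645% (tumors against GNP, exact permutation p = 0.7), so that the direction turned. Length of the list moved with this: the 3 longest lists, which are NFIA library 2 of hyperplasia and NFIA libraries 1 and 2 of the tumors, had 0.0986%, 0.108% and 0.0865% of their summits in the stretch. The 3 tumor NFIB libraries had 0.0183%, 0.0190% and 0.0176%. Between 15 and 15.5 Mb, the first and second tumor NFIA libraries listed 56 and 47 summits of any rank, and the tumor NFIB libraries 0, 0 and 1. Without the 3 longest lists, and with all listed summits scaled, Gli3 itself was lower in tumors than in GNP by a log2 difference of -1.65 (limma adjusted p = 0.000822), an alternative added after the data were seen. In that setting the NFIB list of the same preparation was counted double in place of each NFIA list left out. Tumor preparations 1 and 2 then held NFIB alone, against NFIA and NFIB in GNP, so target and stage were partly mixed. At any rank, the tumor NFIA lists left out held 58 and 70 Gli3 summits, and their NFIB partners 2 and 5. The part of list length in these values was not tested beyond the fit with list length as a covariate, in which the stretch from 15 to 18 Mb was -0.999 in tumor minus GNP (limma adjusted p = 0.0678).

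NFIA and NFIB gave much the same numbers at the GLI genes. Gli2 had 20.8 ± 2.59 top summits per NFIA library and 20.9 ± 3.10 per NFIB library (SD, n = 9 each), a log2 difference of 0.00 (SE 0.06, limma adjusted p = 1.0). Gli3 had 3.22 per library of either target (-0.06, SE 0.23, limma adjusted p = 0.989), and Gli1 0.778 and 1.00. These fits, and the interaction fit below, left out the pairing of the NFIA and NFIB libraries of a preparation. With preparation as a block, Gli2 was 0.00 (SE 0.04) and Gli3 -0.06 (SE 0.22, limma adjusted p = 0.985). With 0 of 8581 genes called between the targets by limma (0% of genes, with 490 at an unadjusted p under 0.05), these data hold no gene that the unpaired fit told apart by target. A stage difference that depended on the target was not found for Gli2 or Gli3 either (limma adjusted p from 0.996 to 1.0 over the interaction terms). Of the NFIA top summits at Gli2, 80 of 187 (42.8%) had an NFIB top summit of the same preparation within 100 bp, and of those at Gli3 13 of 29 (44.8%), close to the 41.0% of all top summits. Targets were read from the sample titles, and 6 of the 18 lists were deposited under a name with the opposite target.

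The other genes of the hedgehog pathway showed no called difference between stages. Of 30 genes listed (receptors and coreceptors, GLI regulators, partners and targets), 25 passed the filter, and none rose or fell at an adjusted p under 0.05 in any of the 3 limma fits. In hyperplasia minus GNP, 8 were higher and 16 lower, with a median log2 difference of -0.16; over all tested genes 3974 were higher and 4154 lower. In tumor minus GNP the list had 13 higher and 12 lower (median 0.06), and in tumor minus hyperplasia 20 higher and 5 lower (median 0.22), where all genes had 4183 and 4088. The median over all tested genes was 0 in each of the 3 comparisons. Among the receptors, Ptch1, the inhibitory receptor and a target of the pathway, had 10, 10 and 8 top summits in GNP, 7, 10 and 7 in hyperplasia and 7, 9 and 9 in tumors. Smo, the signal transducer, had 3, 3 and 4, then 4, 6 and 4, then 7, 6 and 6. The tumor preparations of Smo all lay above those of GNP; 12.1% of all genes had no overlap between these stages, and the difference of 0.84 (SE 0.19) did not pass (limma adjusted p = 0.106). Sufu, the inhibitor of the GLI proteins, had 11, 15 and 13, then 11, 8 and 12, then 13, 9 and 12, with all stages overlapping.

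By the Pearson correlation of log2(summits + 0.5) over the 9 preparations, the genes most like Gli2 among the 8581 tested were Cog7 (r = 0.966), Fam120a (r = 0.901) and Aldh1b1 (r = 0.899). Those most like Gli3 were Shpk (r = 0.959), Dpyd (r = 0.946) and Ppara (r = 0.924). These are the highest of many values over 9 points that share libraries and list lengths, and are a description only. Cog7 had 6, 9 and 9 top summits in GNP, 6, 5 and 4 in hyperplasia and 7, 7 and 5 in tumors. Fam120a had 5, 8 and 7, then 6, 2 and 3, then 6, 8 and 4. Aldh1b1 had 5, 7 and 7, then 4, 3 and 2, then 4, 6 and 5. Shpk had 3, 2 and 3, then 3, 3 and 3, then 2, 2 and 2, and moved by 1 summit, so few counts stand behind its likeness to Gli3. Dpyd had more, with 15, 10 and 16, then 13, 12 and 14, then 10, 11 and 11. Ppara had 23, 19 and 21, then 21, 21 and 22, then 17, 17 and 17.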

How the data were processed

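NFIA and NFIB CUT&Tag was done on 18 libraries. The submitters' processing notes name Bowtie2, MACS2 and mm10, without versions. Not given in the sources used here are the control, if any, and whether scores are p or q values. The lists that the authors deposited, 1 for each library, hold 1-base summits with a −log10 score, 2.00 or more. Depth is unknown, since the lists hold no read counts, and no interval or floor was computed.

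Titles gave stage and target. The deposited name has the opposite target in 6 libraries and a different replicate number in 12. Titles give 5 dates: preparations 1 and 2 of GNP and hyperplasia share the first, number 3 of both (whose titles read merged) the second, and each tumor preparation has its own, so date and tumor cannot be told apart. No 2 libraries shared more than 0.537% of their top positions.

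The 30000 highest autosomal summits of each library were kept (lowest score kept 3.46 to 9.84; ties broken at random, at most 20.4% of the summits kept), and given to the nearest protein-coding RefSeq span (GRCm38.p6) within 100 kb. NFIA and NFIB libraries of a preparation were summed. Genes and windows with a mean of 2 or more were fitted with limma 3.58.1 in R 4.3.3 (trend, empirical Bayes) on log2(summits + 0.5), 9 preparations in 1 fit with stage as the term, Benjamini-Hochberg adjusted at 0.05. This scale understates differences at low counts. NFIB minus NFIA was fitted on single libraries, adjusting for stage (mean of at least 1). Exact permutation tests went through every division of the preparations between the stages, in Python 3.11.15 with numpy 2.4.6. On simulated counts, the gene fits recovered 1% to 5% of 2-fold and 27% to 37% of 4-fold changes, and the 0.5 Mb windows 42% to 50% and 86% to 93%. Calls outside the planted changes numbered 0 to 1 for genes, 2 to 5 for 0.5 Mb windows and 7 to 12 for 3 Mb windows. The simulation had Poisson spread alone, without differences between preparations, list lengths or dates, unlike these data. Its shares cover all features past the filter and do not describe a gene with as many summits as Gli2. Coordinates are 1-based.

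The genes, lists, stretch and tests were chosen with earlier results of these data known. Besides the GLI genes, values are given for genes of the stretch with a mean of at least 1, for the 3 genes most like Gli2 and Gli3, for Ptch1, Smo and Sufu, and for regions called, held by all libraries or nearest a start. Alternatives changed the number and choice of summits, libraries, gene rule, filter, pseudocount and covariates, and left out each preparation. In fits without single NFIA lists, the NFIB list of the same preparation was counted double in their place.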

Additional observations from a re-analysis of the deposited data

Results flagged for a closer look

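Dixon's test at the 95% level was run on 36 groups of 5 or 6 libraries and marked 5 values. Its chance rate of about 1 in 20 groups holds for continuous values, whereas many groups here were small tied counts. A single library that differs from otherwise equal counts is always marked, as in the first and last values below. The groups also share libraries, so the number marked was not set against chance. The third NFIA library of GNP had 0 top summits at Gli1, where the other GNP libraries had 1 each. The second NFIA library of hyperplasia listed 70 summits of any rank at Gli3, where the hyperplasia median was 18.5. The same library had 0.0986% of its listed summits between 15 and 18 Mb of chr13, against a hyperplasia median of 0.0449%. The best Gli3 summit of the third NFIA library of the tumors ranked 28631, against a tumor median of 12511. The second NFIA library of the tumors had 1 top summit between 15 and 15.5 Mb of chr13, where the other tumor libraries had 0.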

How the results depend on the processing

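Limits: the lists hold no reads, so sites below the authors' threshold are unseen, and 3 preparations a stage limit every test. Few summits stand behind Gli3 and Gli1.

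The lower number of tumor summits between 15 and 15.5 Mb of chr13 passed in the 21 alternatives that could be fitted; with 15000 summits the window was below the filter and was not tested. For 15 to 18 Mb, tumor minus GNP no longer passed with 15000 summits (-0.46), all listed summits (-0.33) or list length as a covariate (-0.999), and tumor minus hyperplasia with the same 3 settings (-0.55, -0.31 and -0.98); leaving out 1 preparation gave -1.42 to -1.06 and -1.27 to -0.97. Hyperplasia minus GNP there turned to 0.092 with 15000 summits and to 0.14 with scores of at least 5, and ran from -0.35 to 0.01 (0.00683) leaving out 1 preparation. Gli2 tumor minus GNP turned to 0.082 with 15000 summits, and tumor minus hyperplasia to -0.33 with all listed summits and to -0.16 without the 3 longest lists. Gli3 hyperplasia minus GNP turned to -0.15 and -0.18 in those 2 settings and ran from -0.24 to 0.37 leaving out 1 preparation. Gli3 tumor minus GNP turned to 0.39 with 15000 summits. It passed with all listed summits (-0.78), a setting that called 314 genes. It also passed without the 3 longest lists (-1.65), where tumor minus hyperplasia passed too (-1.47). In the setting without the 3 longest lists, all NFIA, the NFIB lists of their preparations were counted double, so target and stage were partly mixed. Sugct tumor minus GNP turned to 0.043 with all listed summits. NFIB minus NFIA turned to -0.02 (-0.0168) for Gli2 in the 12 libraries with agreeing names and to 0.20 for Gli3 with 15000 summits. The best Gli2 rank percentile had an adjusted exact permutation p of 0.0321 in NFIB libraries alone, and from 0.0429 (without hyperplasia preparation 2) to 0.354 leaving out 1 preparation. The causes were not tested.

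Counts of genes called by limma (9 in hyperplasia minus GNP, 13 in tumor minus GNP, 8 in tumor minus hyperplasia) moved by over 1.5 times in many settings. The first became 42 with 15000 summits, 86 with no filter, 3 with a pseudocount of 2, 1 with list length, and 0 with all listed summits, scores of at least 5, NFIA alone, NFIB alone or title date as a term (1 to 11 leaving out 1 preparation). The second became 29 with ties in another order, 41 with 15000 summits, 314 with all listed summits, 4 with scores of at least 5, 1 with NFIA alone, 0 with NFIB alone, 31 without the second NFIA library of hyperplasia, 1 with list length, 107 with no filter and 28 inside gene spans only (4 to 25). The third became 5 with all listed summits, 2 with scores of at least 5, 1 with NFIA alone, 0 with NFIB alone, 3 without the second NFIA library of hyperplasia, 1 without chr6, 0 with list length, 4 with a pseudocount of 2, 39 with no filter and 0 within 50 kb (0 to 3).

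The replicate block was kept as an alternative. The deviations of same-numbered preparations, not their summit numbers as such, correlated by only 0.00463 to 0.0836. Between different numbers these correlations ran from -0.0743 to 0.0266. Even so, 8 of 9 preparations correlated best with their own number, a hint of pairing from the data. Number 3 of GNP and hyperplasia shares a date. With the replicate block the counts were 1, 2 and 0, Gli2 hyperplasia minus GNP was -0.33 (limma adjusted p = 0.324) and Gli3 tumor minus GNP -0.89 (limma adjusted p = 0.263), and no call at Gli2, Gli3 or the stretch changed, while both at Sugct were lost.

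Regions of GLI genes gained or lost are single regions. Gained from GNP to hyperplasia became 0 with 15000 summits or with all 6 libraries against none (0 to 1 leaving out 1 preparation), and lost 0 with all listed summits, 250 bp on each side or all 6 against none (0 to 2). From GNP to tumors, gained became 1 with 15000 summits and lost 2 with all listed summits (0 to 1). From hyperplasia to tumors, gained became 0 with all listed summits or all 6 against none (0 to 1), and lost 0 with 15000 summits, 3 with all listed summits and 0 with all 6 against none.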
